A study of Mus musculus with 17 samples.

Results

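The genes described are 10 immediate early genes: 8 that encode nuclear proteins (Fos, Fosb, Jun, Junb, Egr1, Nr4a1, Atf3 and Ier2) and 2 that feed back on the same signals (Dusp1 and Zfp36). They were chosen by name as genes of 1 response, with earlier results of these data known. They are 10 of the 19938 genes whose features on the array carry 1 gene symbol. Each was read by 1 feature, the summary of a set of probes. The series followed myeloid-derived suppressor cells through tumour growth. RNA of sorted spleen cells of female BALB/c mice was hybridised to 17 Affymetrix Mouse Gene 1.0 ST arrays. CD11b+ cells were enriched on magnetic beads and sorted from pooled spleens into a monocytic gate (Mo, Ly-6C high and Ly-6G low) and a polymorphonuclear gate (PMN, Ly-6C low and Ly-6G high).

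The mice were naive, or carried tumours grown from 100000 Her-2/CT26 colon carcinoma cells injected under the skin 3 or 6 weeks before. The labels name no engineered allele for the mice of any group, and the tumour is 1 transplanted line. Mo came from naive mice (3 arrays), 3-week mice (3 arrays) and 6-week mice (3 arrays), and PMN from naive mice (4 arrays), 3-week mice (2 arrays) and 6-week mice (2 arrays). Because spleens were pooled, an array is not a mouse, and the labels do not say whether arrays of a group came from separate pools. The p-values below therefore rest on array-to-array spread, part of which may come from handling or hybridisation alone.

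Immediate early genes are transcribed within minutes of a stimulus from transcription factors already present in the cell, without new protein synthesis. Growth factor, cytokine and stress signals reach them through MAP kinases, which act on serum response factor with its ternary complex partners at CArG boxes and on CREB and ATF proteins at cAMP response elements. Fos, Fosb, Jun and Junb encode subunits of the dimeric transcription factor AP-1, Egr1 a zinc finger factor, Nr4a1 an orphan nuclear receptor and Atf3 a factor of the ATF/CREB family. Ier2 encodes a small nuclear protein. Dusp1 encodes a phosphatase that inactivates p38 and JNK, and Zfp36 encodes tristetraprolin, which binds AU-rich elements in mRNAs of inflammatory mediators and directs their decay. Tissue dissociation and sorting are known to induce these genes too, and the labels give no time from spleen to lysis.

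The gates were checked on marker genes. Ccr2, the monocyte chemokine receptor gene, had a mean log2 intensity of 12.24 in Mo and 6.30 in PMN arrays, and Cxcr2, the neutrophil chemokine receptor gene, one of 5.91 in Mo and 12.55 in PMN arrays. Ly6g, the gene of the sorted Ly-6G antigen, had a mean of 6.44 in Mo arrays, where its highest array read 8.95, and of 11.14 in PMN arrays. The upper quartile of an array was 254 to 298 intensity units for Mo but 183 to 202 for PMN, and pairs of arrays of 1 subset shared more exact values than pairs of different subsets, so the subsets were treated as normalized apart. Levels in Mo and PMN are therefore given side by side without a test, and only the changes with stage are compared between them. Fewer cells of a type and less RNA per cell cannot be told apart in bulk RNA.

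The upstream sequences of 5 of the genes whose levels moved are shown first, as RefSeq gives them on GRCm38.p6. The letters next to their starts can so be read beside the values. Jun, Junb and Zfp36 were also called at 6 weeks, in Mo, PMN or both, but their sequences are not printed. The windows of Jun and Zfp36 held no TGACG, so the printed sequences do not stand for all genes that moved. Promoters of 8 of the 10 genes could be matched (not those of Egr1 and Ier2), and the 250 bases before the annotated start of each were searched. Capitals in the sequences below mark TGACG on either strand (CGTCA on the strand shown), which is the core of the cAMP response element TGACGTCA, and TATAAA on the strand shown. The sequences run 5' to 3' on the strand of the gene and end at the base before the start. The windows of Fosb and Nr4a1 lie partly or wholly inside the annotated span of the gene.
Fos, chr12:85473640-85473889, plus strand: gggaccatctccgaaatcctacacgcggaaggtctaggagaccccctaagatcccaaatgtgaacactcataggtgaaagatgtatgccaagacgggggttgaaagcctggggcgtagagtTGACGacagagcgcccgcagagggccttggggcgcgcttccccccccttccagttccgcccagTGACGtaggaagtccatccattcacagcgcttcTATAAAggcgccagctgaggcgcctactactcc
Fosb, chr7:19310046-19310295, minus strand: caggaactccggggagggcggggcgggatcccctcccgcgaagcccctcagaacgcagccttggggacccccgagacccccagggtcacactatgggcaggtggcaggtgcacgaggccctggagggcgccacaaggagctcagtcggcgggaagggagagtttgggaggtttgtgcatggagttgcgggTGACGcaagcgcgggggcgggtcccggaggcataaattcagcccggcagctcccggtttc
Nr4a1, chr15:101266596-101266845, plus strand: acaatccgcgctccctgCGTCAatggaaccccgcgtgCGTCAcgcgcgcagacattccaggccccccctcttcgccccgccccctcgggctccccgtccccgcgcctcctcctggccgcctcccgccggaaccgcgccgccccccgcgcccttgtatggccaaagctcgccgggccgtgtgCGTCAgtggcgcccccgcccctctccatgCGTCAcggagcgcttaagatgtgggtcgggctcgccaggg
Atf3, chr1:191183334-191183583, minus strand: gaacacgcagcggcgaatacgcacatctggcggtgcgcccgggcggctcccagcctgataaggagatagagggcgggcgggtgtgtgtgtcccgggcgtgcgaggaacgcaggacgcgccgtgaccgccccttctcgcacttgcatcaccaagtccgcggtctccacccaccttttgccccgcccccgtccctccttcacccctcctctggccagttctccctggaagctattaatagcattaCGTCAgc
Dusp1, chr17:26508473-26508722, minus strand: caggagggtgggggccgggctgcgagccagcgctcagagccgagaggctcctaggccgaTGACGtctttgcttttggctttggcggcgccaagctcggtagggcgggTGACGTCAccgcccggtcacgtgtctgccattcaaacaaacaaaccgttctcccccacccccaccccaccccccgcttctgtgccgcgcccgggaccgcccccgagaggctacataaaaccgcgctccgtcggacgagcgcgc

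TGACG was present in 6 of the 8 promoters (Fos, Fosb, Junb, Nr4a1, Atf3 and Dusp1), against 20.2% of the 21263 protein-coding promoters of the same length. The Nr4a1 window held 4 copies, 233, 213, 69 and 40 bases before the start counted to the first base of each match. The Fos window held 2, at 129 and 66 bases, and the Fosb window 1, at 60 bases. In Dusp1 a full TGACGTCA lay 143 bases before the start. It overlaps a TGACG on each strand, and TGACGTCA was found in 1.92% of all these promoters and in no other of the 8. A CArG box, searched on both strands, lay 58 bases before the start of Zfp36 and was found in 1.39% of all promoters. TATAAA, searched on the strand of the gene, lay 33 bases before the start of Fos and was found in 7.67%. The AP-1 motif TGAGTCA was in 0 of the 8 windows against 4.06% of all promoters, and the EGR motif GCGTGGGCG in 0 against 0.72%, both searched on both strands. These matches describe letters in a window and were not tested against the expression values. Sites farther upstream, or with letters other than these motifs, were not searched for. A window without a match therefore does not show that the gene lacks such a site.

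PMN of 6-week mice had lower signals than naive PMN for 8 of the 10 genes, by 1.43-fold (Zfp36) to 4.93-fold (Nr4a1). The AP-1 genes Fos, Fosb and Junb, the transcription factor genes Egr1, Nr4a1 and Atf3, and the feedback genes Dusp1 and Zfp36 passed the test, while Jun and Ier2 did not. The test was limma's moderated test in 1 fit over all 17 arrays on log2 intensity, adjusted by Benjamini-Hochberg over 19938 genes and called at an adjusted p below 0.05. Of all genes, 40% were called lower in this comparison and 65.4% were called in either direction. The median change of the 10 genes was -1.11 on the log2 scale, beside -0.18 over all genes. These shares include many dim genes. With genes of a mean log2 intensity under 6.86 left out, 2341 of 9446 genes were called lower and 4573 higher, with a median change of 0.27. The same 8 of the 10 genes were called in that fit.

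Fos lies at chr12:85473890-85477274 (GRCm38.p6). It read 10.28 and 10.33 on the log2 intensity scale in the PMN arrays of 6-week mice, against 11.63, 11.98, 11.41 and 11.61 in those of naive mice. The groups did not overlap, and the fitted change was -1.35 ± 0.26 (SE, limma adjusted p = 0.000342). Fosb (chr7:19302696-19310118), whose product takes the place of Fos in AP-1 dimers, read 9.0 and 8.66 in 6-week PMN, against 10.94, 11.71, 10.56 and 10.97 in naive PMN. All naive values lay above both 6-week values, and the change of -2.22 ± 0.37 (SE, limma adjusted p = 0.000105) is a 4.64-fold fall in intensity. Junb (chr8:84976909-84978748), a Jun family partner, read 8.03 and 8.05 in 6-week PMN, against 8.54, 9.39, 8.43 and 8.32 in naive PMN. These groups also stood apart, with 1 naive array well above the other 3, and the change was -0.63 ± 0.23 (SE, limma adjusted p = 0.0267). Jun (chr4:95049036-95052222), the main partner of Fos, read 7.98 and 7.87 in 6-week PMN, against 8.23, 8.98, 7.66 and 8.43 in naive PMN. Its groups overlapped, and its difference of -0.40 did not pass (limma adjusted p = 0.225).

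Egr1, whose zinc finger protein binds GC-rich promoter sites, read 7.51 and 7.60 in 6-week PMN, against 9.60, 10.12, 8.95 and 9.76 in naive PMN. Nr4a1 (chr15:101253902-101274795), which encodes the orphan receptor Nur77, read 7.95 and 7.88 in 6-week PMN, against 10.06, 10.92, 9.89 and 9.98 in naive PMN. Atf3 (chr1:191170296-191183333), a stress-inducible member of the ATF family, read 6.96 and 6.90 in 6-week PMN, against 8.68, 9.27, 8.52 and 8.53 in naive PMN. In all 3 genes the highest 6-week array lay below the lowest naive array. The fitted changes were -2.05 ± 0.23 for Egr1 (SE, limma adjusted p = 2.05e-06), a 4.15-fold fall, and -2.30 ± 0.24 for Nr4a1 (SE, limma adjusted p = 7.73e-07), a 4.93-fold fall. Atf3 changed by -1.82 ± 0.28 (SE, limma adjusted p = 5.14e-05), a 3.53-fold fall. Ier2 (chr8:84661331-84662852) read 9.26 and 9.35 in 6-week PMN, against 9.54, 9.81, 9.04 and 9.19 in naive PMN. The 6-week arrays lay within the naive range, and the difference of -0.09 did not pass (limma adjusted p = 0.685).

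Both feedback genes were lower too. Dusp1 (chr17:26505591-26508472) read 11.92 and 12.08 in 6-week PMN, against 13.21, 12.89, 12.62 and 12.72 in naive PMN, a change of -0.86 ± 0.30 (SE, limma adjusted p = 0.0201). Zfp36 (chr7:28376784-28379228) read 10.24 and 10.27 in 6-week PMN, against 10.73, 11.15, 10.61 and 10.59 in naive PMN, a change of -0.51 ± 0.20 (SE, limma adjusted p = 0.0328). Neither gene's groups overlapped. Over all genes, 51.4% had 6-week PMN arrays that all lay below every naive array, and 28.8% had them all above.

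**Figure D1:**
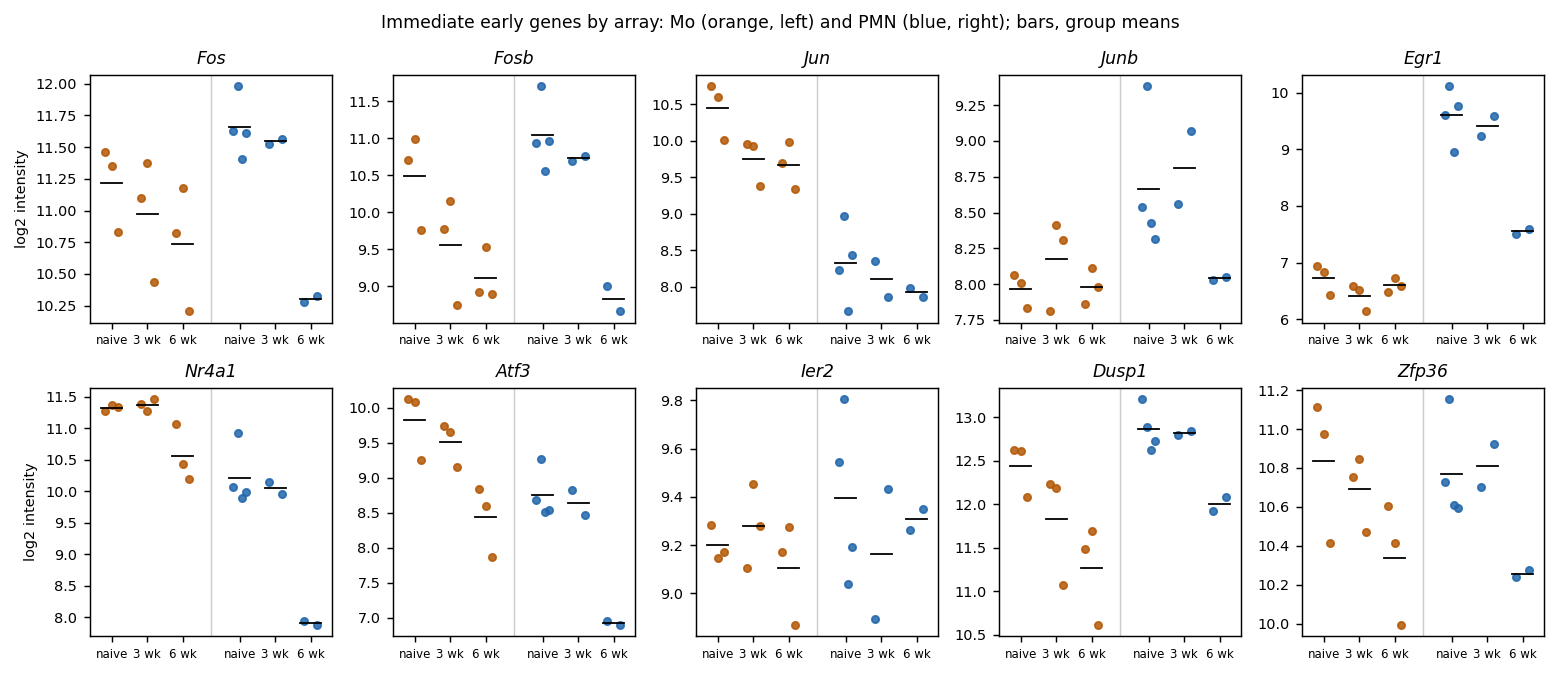
Log2 intensity of the 10 genes on each of the 17 arrays (points), by stage, for Mo (orange, left of the line in each panel) and PMN (blue, right of it), with bars at group means. In PMN the 6-week points stand below all naive and 3-week points for 8 genes, while Jun and Ier2 overlap.

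The size of these falls depended partly on how arrays were scaled. The array medians were lower in 6-week PMN, at 82.4 and 81.0 intensity units, against 91.3 to 94.7 in naive PMN, and genes of olfactory and vomeronasal receptors, which blood cells do not use, had a median change of -0.36. With each array centred on its median, calls over all genes went to 5760 higher and 3507 lower, beside 5075 higher and 7972 lower without centring. Fos, Fosb, Egr1, Nr4a1 and Atf3 stayed lower and past the test under all 27 alternatives tried, including the leaving out of each array. Junb, Dusp1 and Zfp36 did not pass with median centring (limma adjusted p = 0.188, 0.0707 and 0.186), nor without either 6-week PMN array. Without PMN naive replicate 2, Junb and Zfp36 did not pass, and without PMN naive replicate 1, Dusp1 did not.

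Sums of cell type markers, those of neutrophils among them, were read in the same comparison, and only some of them moved. The summed intensity of 7 measured B cell markers was 965 to 1054 in 6-week PMN, against 2685 to 3106 in naive PMN, and 1 of the 7 (Fcer2a) was near the level of the receptor genes in 6-week PMN. That of 9 neutrophil markers was 53775 to 57015 in 6-week PMN, against 20623 to 22400 in naive PMN. That of 7 monocyte markers was 1852 to 1950 in 6-week PMN, against 1813 to 2735 in naive PMN, with Ccr2 near the receptor level in both. That of 8 macrophage markers was 2236 to 2314 in 6-week PMN, against 1480 to 2999 in naive PMN. For monocytes and macrophages the 6-week sums lay within the naive range. So did those of T and NK cell markers (1142 to 1232, against 1107 to 1471) and platelet markers (576 to 596, against 574 to 630). The sum of 7 dendritic cell markers was 667 to 747 in 6-week PMN, against 940 to 1059 in naive PMN. Of these 7, 5 were near the receptor level in 6-week PMN and 6 in naive PMN. The part of these cells in the falls was not tested.

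Mo of 6-week mice had lower signals than naive Mo for 6 of the 10 genes: Fosb, Jun, Nr4a1, Atf3, Dusp1 and Zfp36, by 1.41-fold (Zfp36) to 2.60-fold (Fosb and Atf3). Fos, Junb, Egr1 and Ier2 did not pass. Of all genes, 24.4% were called lower in this comparison and 46.2% in either direction. The median change of the 10 genes was -0.63 on the log2 scale, beside -0.09 over all genes. With genes of a mean log2 intensity under 6.86 left out, 1653 of 9446 genes were called lower and 3616 higher, with a median change of 0.17. Median centring of the arrays gave 5805 higher and 1379 lower calls over all genes, beside 4341 higher and 4863 lower without it.

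Fosb read 8.92, 9.53 and 8.89 in the Mo arrays of 6-week mice, against 10.71, 10.99 and 9.76 in those of naive mice. The groups stood apart by a small margin, since naive replicate 3 was far below the other naive arrays, and the change was -1.38 ± 0.35 (SE, limma adjusted p = 0.00603). Jun read 9.69, 9.98 and 9.35 in 6-week Mo, against 10.75, 10.60 and 10.01 in naive Mo, a change of -0.78 ± 0.27 (SE, limma adjusted p = 0.0287). The lowest naive array lay just above the highest 6-week array. Fos read 10.82, 11.18 and 10.20 in 6-week Mo, against 11.46, 11.35 and 10.83 in naive Mo, and its overlapping groups gave a difference of -0.48 that did not pass (limma adjusted p = 0.107). Junb read 7.86, 8.11 and 7.98 in 6-week Mo, against 8.06, 8.01 and 7.83 in naive Mo, with a difference of 0.02 (limma adjusted p = 0.958).

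Nr4a1 read 11.07, 10.44 and 10.19 in 6-week Mo, against 11.27, 11.37 and 11.34 in naive Mo. The naive arrays lay close together and above all 6-week arrays, and the change was -0.76 ± 0.22 (SE, limma adjusted p = 0.0134). Atf3 read 8.84, 8.60 and 7.87 in 6-week Mo, against 10.12, 10.08 and 9.25 in naive Mo, a change of -1.38 ± 0.26 (SE, limma adjusted p = 0.000973) between groups that did not overlap. Egr1 read 6.48, 6.72 and 6.59 in 6-week Mo, against 6.94, 6.84 and 6.43 in naive Mo, and its difference of -0.14 did not pass (limma adjusted p = 0.605). Egr1 was the only one of the 10 genes near the background level in any group, a level set as the 95th percentile of 1190 receptor genes: its mean was 6.60 beside 6.48 for that percentile in 6-week Mo, 6.42 beside 6.75 in 3-week Mo and 6.73 beside 7.10 in naive Mo. Ier2 read 9.17, 9.27 and 8.87 in 6-week Mo, against 9.28, 9.15 and 9.17 in naive Mo, with a difference of -0.09 (limma adjusted p = 0.661).

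Dusp1 read 11.48, 11.69 and 10.61 in 6-week Mo, against 12.63, 12.61 and 12.08 in naive Mo, a change of -1.18 ± 0.28 (SE, limma adjusted p = 0.00474). Its groups did not overlap, and replicate 3 was the lowest array in each. Zfp36 read 10.60, 10.42 and 9.995 in 6-week Mo, against 11.11, 10.98 and 10.41 in naive Mo, a change of -0.50 ± 0.19 (SE, limma adjusted p = 0.0408) between groups that overlapped. The groups stood apart for 5 of the 10 genes, each lower at 6 weeks, beside 31.4% of all genes, and 0 of the 10 stood apart as higher, beside 23.7%.

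**Figure D2:**
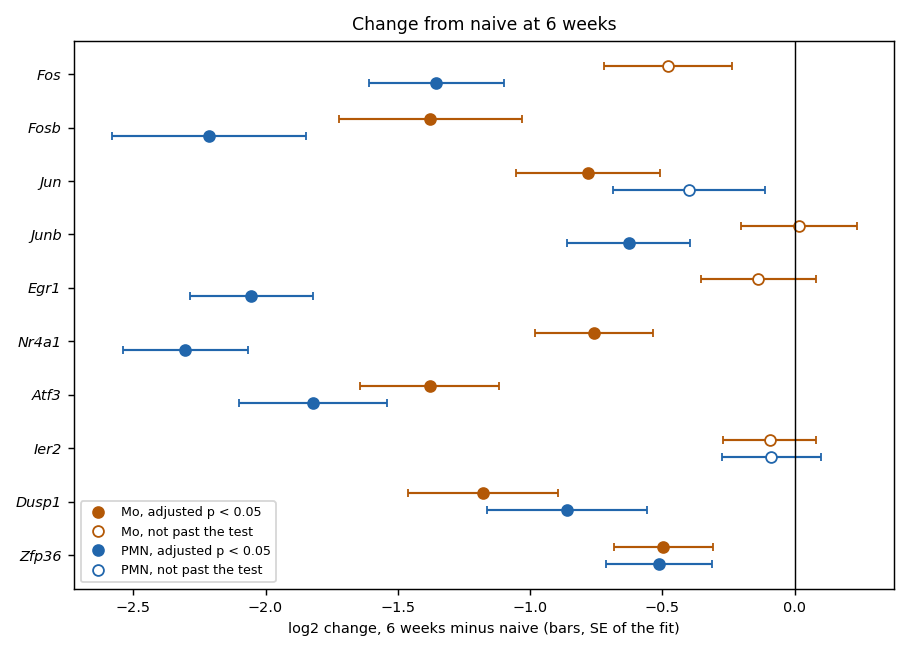
Fitted log2 change of each gene in 6-week against naive mice (horizontal axis; points with standard errors of the limma fit), for Mo (orange) and PMN (blue); filled points passed at an adjusted p below 0.05. Egr1 lies at -0.14 in Mo and -2.05 in PMN, and Nr4a1 at -0.76 in Mo and -2.30 in PMN.

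Fosb, Atf3 and Dusp1 passed in Mo under all 27 alternatives. Jun, Nr4a1 and Zfp36 did not pass with median centring (limma adjusted p = 0.101, 0.0610 and 0.188), nor without Mo 6-week replicate 3, which was the lowest 6-week array for 8 of the 10 genes. Jun and Zfp36 also failed without Mo naive replicate 1 or 2, and Nr4a1 (limma adjusted p = 0.0533) and Zfp36 (0.0715) without Mo 6-week replicate 2. Zfp36 failed as well, at an adjusted p of 0.0501 to 0.0508, without PMN naive replicate 1 or either 6-week PMN array, and at 0.0836 with Mo fitted alone. The summed intensity of 9 neutrophil markers was 6378, 14880 and 5502 in 6-week Mo, against 1055 to 1444 in naive Mo, with 3 of the 9 near the receptor level in 6-week Mo (Cxcr2, Retnlg and Stfa3) and 5 in naive Mo. For 9 T and NK cell markers it was 529 to 676 in 6-week Mo, against 1081 to 1527 in naive Mo, with 7 of the 9 near the receptor level in 6-week Mo and 5 in naive Mo. Sums were also lower for 7 B cell markers (576 to 804 in 6-week Mo, against 871 to 1672 in naive Mo), for 5 platelet markers (408 to 524, against 591 to 666) and for 8 macrophage markers (1298 to 1623, against 1814 to 2005). The part of these cells in the differences was not tested.

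At 3 weeks none of the 10 genes passed in either subset in the main fit. In Mo, limma called 0 of the 10 in 3-week against naive mice, where 6.03% of all genes passed in either direction (5.2% higher and 0.833% lower), and 3 (Fosb, Jun and Dusp1) had an unadjusted p below 0.05, as did 32.9% of all genes. Centring on array medians gave 1382 higher and 30 lower calls over all genes, beside 1036 higher and 166 lower. Groups stood apart, with 3-week arrays lower, for 1 of the 10 genes beside 10.4% of all genes. That gene was Jun, which read 9.96, 9.93 and 9.37 in 3-week Mo, all below the 10.75, 10.60 and 10.01 of naive Mo, and whose difference of -0.70 had a limma adjusted p of 0.0987. Fosb read 9.77, 10.15 and 8.74 in 3-week Mo, overlapping naive Mo, with a difference of -0.94 (limma adjusted p = 0.0900). Dusp1 read 12.24, 12.19 and 11.07 in 3-week Mo, also with overlap, and differed by -0.61 (limma adjusted p = 0.148). The call of Fosb and Jun depended on 1 array: both passed without Mo naive replicate 3, and these and Dusp1 without Mo 3-week replicate 1. With the replicate number fitted as a block, Fosb, Jun and Dusp1 were called, beside 3263 higher and 2039 lower calls over all genes. Array weights, which had not converged, gave 7 calls, beside 6679 higher and 8498 lower over all genes. The 0 calls at 3 weeks in Mo therefore depended on the model.

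In PMN, limma called 0 of the 10 genes in 3-week against naive mice, 0 of the 10 had an unadjusted p below 0.05 (1.88% of all genes did), and 0% of all genes passed. The differences ran from -0.31 (Fosb) to 0.15 (Junb), and each gene's 3-week values overlapped the naive ones (over all genes, 6.17% stood apart as higher and 5.12% as lower). Fos read 11.53 and 11.56 in 3-week PMN, within the naive range of 11.41 to 11.98. Egr1 read 9.24 and 9.58, Nr4a1 10.15 and 9.96, and Atf3 8.82 and 8.46, each overlapping the 4 naive arrays. With 2 arrays at 3 weeks, the standard errors of these differences were 0.19 (Ier2) to 0.37 (Fosb).

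Set against the 3-week arrays, 6-week PMN were lower for 7 of the 10 genes: Fos, Fosb, Junb, Egr1, Nr4a1, Atf3 and Zfp36. Of all genes, 34.9% were called lower in this comparison, 23.7% higher and 58.7% in either direction, and centring on array medians gave 5282 higher and 2438 lower calls, beside 4726 higher and 6968 lower. Nr4a1 changed by -2.14 ± 0.27 (SE, limma adjusted p = 1.15e-05), with 7.95 and 7.88 at 6 weeks, against 10.15 and 9.96 at 3 weeks. Egr1 changed by -1.86 ± 0.27 (SE, limma adjusted p = 3.77e-05) and Fosb, at 10.69 and 10.77 in 3-week PMN, by -1.90 ± 0.42 (SE, limma adjusted p = 0.00171). These 3, with Fos (-1.24) and Atf3 (-1.71), passed under all 27 alternatives. Dusp1, at 12.79 and 12.84 in 3-week PMN, stood apart as well, but its difference of -0.82 missed the threshold (limma adjusted p = 0.0537). Zfp36, at 10.70 and 10.92, passed narrowly with -0.55 (limma adjusted p = 0.0482) and failed under 13 of the 27 alternatives, 10 of which leave out 1 array. Junb, at 8.56 and 9.07 in 3-week PMN, changed by -0.77 (limma adjusted p = 0.0223) and failed with median centring and without PMN 3-week replicate 2 or either 6-week array. The 6-week arrays lay below the 3-week arrays for 8 of the 10 genes, beside 55.7% of all genes. This comparison and the one against naive PMN use the same 6-week arrays.

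In Mo, 6-week arrays were lower than 3-week arrays for Nr4a1 and Atf3, 2 of the 10 genes, beside 3.13% of all genes called lower, 4.38% higher and 7.51% called in either direction. Median centring gave 718 higher and 393 lower calls over all genes, beside 873 higher and 624 lower. Nr4a1 read 11.07, 10.44 and 10.19 in 6-week Mo, against 11.40, 11.28 and 11.47 in 3-week Mo, a change of -0.81 ± 0.22 (SE, limma adjusted p = 0.0309). Atf3 read 8.84, 8.60 and 7.87 in 6-week Mo, against 9.74, 9.65 and 9.15 in 3-week Mo, a change of -1.08 ± 0.26 (SE, limma adjusted p = 0.0146). Both genes' groups stood apart, as for 6.8% of all genes. Neither passed without Mo 3-week replicate 1 or 2 or Mo 6-week replicate 3, and Nr4a1 also failed without Mo 3-week replicate 3 or Mo 6-week replicate 2.

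Ordered by mean level, 6-week arrays came last in PMN for 9 of the 10 genes; Ier2 had its lowest mean at 3 weeks (9.16 ± 0.38, SD, n = 2). In PMN the naive and 3-week groups, which came next to each other in 9 genes, did not differ beyond their spread in any. In Mo the order was naive, 3 weeks, 6 weeks for Fos, Fosb, Jun, Atf3, Dusp1 and Zfp36, with only Jun's naive group standing apart from its neighbour and only Atf3's 6-week group from its own. Nr4a1 in Mo did not differ beyond its spread between naive (11.32 ± 0.05, SD, n = 3) and 3 weeks (11.38 ± 0.10, SD, n = 3) and lay at 10.57 ± 0.45 (SD, n = 3) at 6 weeks.

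The change from naive to 6 weeks differed between subsets for 2 of the 10 genes. Egr1 changed by -0.14 in Mo and by -2.05 in PMN, a difference of 1.92 ± 0.32 (SE, limma adjusted p = 0.000515). Nr4a1 changed by -0.76 in Mo and by -2.30 in PMN, a difference of 1.54 ± 0.32 (SE, limma adjusted p = 0.00333). Of all genes, 6.47% were called as having a higher change in Mo than in PMN and 17.5% were called in either direction, and median centring gave 737 higher and 1523 lower calls, beside 1290 higher and 2197 lower. Egr1 was near the background level in naive and 3-week Mo, where a fall can be read only down to that level, so neither of its differences measures how far its change in Mo lay from that in PMN, and Nr4a1 was above it in every group. For the other 8 genes the difference did not pass: it was 0.88 ± 0.35 for Fos (SE, limma adjusted p = 0.102), 0.84 ± 0.50 for Fosb (SE, limma adjusted p = 0.303) and 0.44 ± 0.38 for Atf3 (SE, limma adjusted p = 0.508). Dusp1 (-0.32 ± 0.41, SE) and Zfp36 (0.02 ± 0.27, SE) differed by less than their errors. The same 2 genes passed for the change from 3 to 6 weeks, which shares the 6-week arrays: Egr1 by 2.04 ± 0.34 (SE, limma adjusted p = 0.00038) and Nr4a1 by 1.32 ± 0.35 (SE, limma adjusted p = 0.0105), where 11.9% of all genes were called higher and 29.2% in either direction. Centring on array medians there gave 767 higher and 3500 lower calls over all genes, beside 2373 higher and 3445 lower. For the change from naive to 3 weeks limma called 0 of the 10 genes, with 0 at an unadjusted p below 0.05 (16.6% of all genes), beside 0.00502% called over all genes.

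Arrays of a group differed in the same direction for most of the 10 genes. Replicate 3 was the lowest array for 8 of the 10 genes in naive Mo, for 7 in 3-week Mo and for 8 in 6-week Mo. In naive PMN replicate 2 was the highest for 9 genes and replicate 3 the lowest for 8. In the same group replicate 2 also had the highest and replicate 3 the lowest summed intensity of macrophage markers (2999 and 1480), monocyte markers (2735 and 1813) and B cell markers (3106 and 2685). Erythroid markers had this order as well (577 and 539), but the other sets did not. Sums of T and NK cell markers (1471) and dendritic cell markers (1059) were highest in replicate 1. Those of neutrophil markers (20623) and platelet markers (574) were lowest in replicate 4. Macrophage markers were higher in replicate 4 (2508) than in replicate 1 (1629), unlike the mean of the 10 genes. The mean of the 10 genes, each centred on its mean over the arrays of its subset, was -0.23, -0.14 and -0.67 log2 units in 6-week Mo, against 0.51, 0.47 and -0.02 in naive Mo. It was -0.88 and -0.89 in 6-week PMN, against 0.32, 0.83, -0.02 and 0.22 in naive PMN. Naive Mo replicate 3 thus lay nearer to 6-week Mo replicate 2 than to the other naive arrays. The part of these cells or of any other cause in this shared spread was not tested.

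Heat shock genes, some of which cell handling is also known to induce, were read on the same arrays. Of the 13 listed, Hspa1b and Hsp90ab1 were not measured. Over 11 measured heat shock genes, the same centred mean lay between -0.25 and 0.24 in Mo and between -0.09 and 0.09 in PMN. This mean averages genes that moved in opposite directions. In 6-week against naive PMN, 4 of the 11 rose and 3 fell, with a median change of 0.03, beside 25.5% of all genes called higher and 40% lower. Dnajb1, a cochaperone, was called higher (limma adjusted p = 0.00112) and was near the background level in naive PMN, and Hspb1, a small chaperone, was called lower (limma adjusted p = 0.000102) and was near that level in 6-week PMN. In Mo, 3 of the 11 rose and 1 fell at 6 weeks, beside 21.8% of all genes called higher and 24.4% lower. The one that fell was Hspa1a, the inducible HSP70 gene, at 7.42, 7.38 and 7.30 in 6-week Mo, against 8.46, 8.60 and 8.91 in naive Mo (limma adjusted p = 7.66e-06), and it was lower at 3 weeks too, at 7.55, 7.69 and 7.06 (limma adjusted p = 0.000811), though not with Mo arrays fitted alone. Hsp90aa1 rose by 0.70 in 6-week Mo (limma adjusted p = 0.00153), at 11.13, 11.23 and 11.83 against 10.60, 10.69 and 10.80 in naive Mo.

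**Figure D3:**
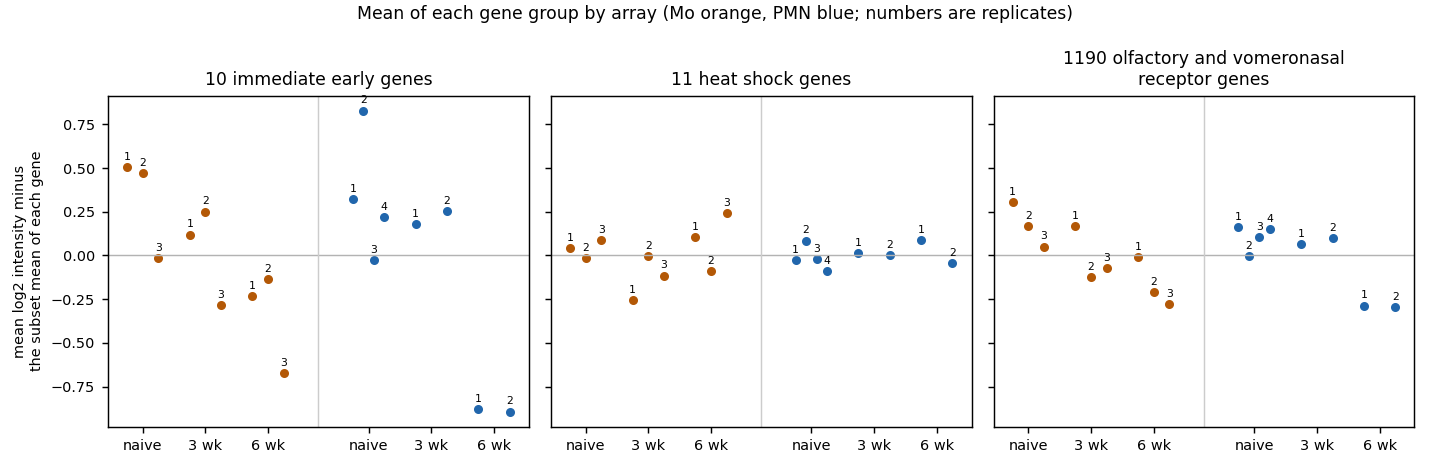
Mean over genes of log2 intensity centred on each gene's mean in its subset (vertical axis) for each array, with replicate numbers, for the 10 immediate early genes, 11 heat shock genes and 1190 receptor genes. The immediate early mean lies between -0.67 and 0.51 in Mo and between -0.89 and 0.83 in PMN. The heat shock mean, which averages genes that rose and genes that fell, lies between -0.25 and 0.24.

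Of 30 other immediate early genes measured, 3 rose and 16 fell in 6-week against naive PMN (median -0.39), and 7 rose and 9 fell in Mo (median -0.22). These counts stand beside 25.5% of all genes called higher and 40% lower in PMN, and 21.8% and 24.4% in Mo. The falls in Mo depended on scaling, with 7 higher and 2 lower after median centring, while PMN had 3 higher and 10 lower. Egr2, a relative of Egr1, read 6.39 and 6.24 in 6-week PMN, against 7.52, 8.91, 7.51 and 8.21 in naive PMN (limma adjusted p = 6.02e-05), and was near the background level in 6-week PMN. Plk3, a stress-response kinase gene, fell by 1.09 in PMN (limma adjusted p = 1.49e-05) and Btg2, an antiproliferative gene, by 1.03 (limma adjusted p = 6.8e-05). Nfil3, a leucine zipper factor gene, went the other way, at 8.98 and 9.09 in 6-week PMN, against 7.51, 7.90, 7.85 and 7.56 in naive PMN (limma adjusted p = 4.5e-07). In Mo the proto-oncogene Myc was called higher, at 7.35, 8.20 and 8.09 in 6-week Mo, against 6.65, 6.57 and 6.73 in naive Mo (limma adjusted p = 0.000109), and was near the background level in naive and 3-week Mo. Btg2 fell by 0.85 in 6-week Mo (limma adjusted p = 0.000663), at 9.41, 8.96 and 8.83 against 9.90, 9.97 and 9.88 in naive Mo. Both genes were also called in 6-week against 3-week Mo, Myc as higher (limma adjusted p = 0.000291) and Btg2 as lower, by -0.88 (limma adjusted p = 0.00102).

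Among 22 genes of MAP kinase phosphatases, Sprouty proteins and RNA decay or NF-kB feedback factors, 4 rose and 11 fell in 6-week against naive PMN (median -0.29), and 2 rose and 9 fell in Mo (median -0.26), beside 40% of all genes called lower in PMN and 24.4% in Mo. After median centring the counts were 4 higher and 6 lower in PMN and 5 higher and 4 lower in Mo. Dusp2, a nuclear ERK and p38 phosphatase gene, read 6.32 and 6.79 in 6-week PMN, against 7.81, 7.83, 7.69 and 7.58 in naive PMN (change -1.17, limma adjusted p = 7.41e-06). In Mo it read 7.26, 6.85 and 6.86 at 6 weeks, against 7.64, 7.88 and 7.73 in naive mice (change -0.76, limma adjusted p = 0.000748). Tnfaip3, the gene of the NF-kB inhibitor A20, fell by 0.90 in 6-week Mo (limma adjusted p = 1.91e-05), at 8.50, 8.31 and 8.48 against 9.29, 9.47 and 9.25 in naive Mo, and by 0.74 in 6-week PMN (limma adjusted p = 6.25e-05). Dusp5, a nuclear ERK phosphatase gene, fell by 1.14 in PMN (limma adjusted p = 3.94e-05). Dusp6, the gene of a cytoplasmic ERK phosphatase, read 10.70, 10.49 and 9.79 in 6-week Mo, against 11.14, 11.06 and 11.05 in naive Mo (limma adjusted p = 0.00869), a call that was lost without Mo 6-week replicate 3. In 6-week against 3-week Mo, 7 of the 22 fell and 0 rose, beside 3.13% of all genes called lower and 4.38% called higher.

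Genes that carry the signal to the immediate early genes were mostly called higher in 6-week PMN, and less often in 6-week Mo. Of 25 measured genes of the MAP kinase, SRF and CREB pathway, 19 rose and 0 fell in 6-week against naive PMN (median 0.65), and 11 rose and 0 fell in Mo (median 0.25). With median centring 20 rose and 0 fell in PMN and 13 rose and 0 fell in Mo; quantile normalization over all arrays gave 15 and 0 in PMN and 5 and 1 in Mo. Over all genes, 25.5% were called higher in PMN and 21.8% in Mo. With genes of a mean log2 intensity under 6.86 left out, 4573 of 9446 genes were called higher in PMN and 3616 in Mo. Quantile normalization called 4922 of all 19938 genes higher in PMN and 3485 in Mo. Mapkapk3, a kinase gene downstream of p38, read 9.37 and 9.21 in 6-week PMN, against 7.28, 7.17, 7.22 and 7.43 in naive PMN (change 2.01, limma adjusted p = 2.84e-07). In Mo it read 9.48, 9.90 and 10.08 at 6 weeks, against 8.52, 8.53 and 8.70 in naive mice (change 1.24, limma adjusted p = 8.49e-05). Map2k4, a kinase gene upstream of JNK and p38, rose by 1.49 in PMN (limma adjusted p = 1.14e-06) and by 0.59 in Mo (limma adjusted p = 0.00596). Nras, a GTPase gene upstream of RAF, rose by 1.32 in PMN (limma adjusted p = 5.22e-07). Of 16 other AP-1 and ATF family genes, 9 rose and 4 fell in 6-week PMN, among them Atf2, which rose by 1.14 (limma adjusted p = 8.61e-06), and the repressor gene Bach2, which was called lower (limma adjusted p = 1.41e-05) but was near the background level in both groups. In 6-week Mo, 6 rose and 5 fell, or 7 and 1 with median centring. At 3 weeks 0 genes of any of the 6 lists passed in PMN, as over all genes.

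**Figure D4:**
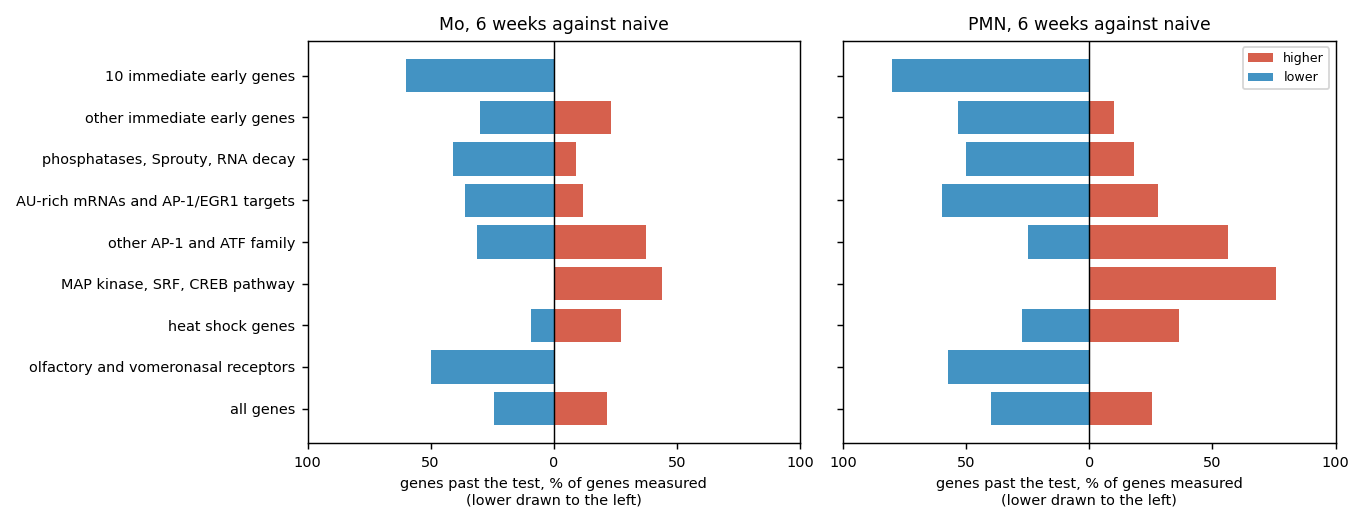
Share of measured genes past the test (horizontal axis, percent; higher to the right, lower to the left) in 6-week against naive mice, for Mo and PMN, for the 10 genes, the 6 related lists, receptor genes and all genes. In PMN 8 of the 10 genes lie to the left, and 19 of the 25 MAP kinase, SRF and CREB pathway genes to the right.

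Messages that Zfp36 protein is known to bind, or that AP-1 or EGR1 are known to drive, were read as well. Of 25 measured, 7 rose and 15 fell in 6-week against naive PMN (median -0.36; 7 and 10 with median centring), and 3 rose and 9 fell in Mo (median -0.16; 3 and 3 with median centring), beside 40% of all genes called lower in PMN and 24.4% in Mo. Ptgs2, the gene of cyclooxygenase-2, read 7.18 and 7.05 in 6-week PMN, against 11.60, 11.90, 11.26 and 11.47 in naive PMN, a 21.7-fold fall (limma adjusted p = 6.38e-11). Its values at 3 weeks, 11.28 and 11.36, overlapped the naive range. Cxcl2, a neutrophil chemoattractant gene, read 6.93 and 7.40 in 6-week PMN, against 9.91, 10.09, 9.47 and 9.53 in naive PMN, a 5.98-fold fall (limma adjusted p = 5.65e-08). Ccl3, a chemokine gene, read 6.81 and 6.89 in 6-week PMN, against 8.84, 9.85, 8.27 and 8.64 in naive PMN (change -2.05, limma adjusted p = 0.000403). Plau, the urokinase gene, was called higher in PMN (limma adjusted p = 6.89e-08), at 8.57 and 8.54 in 6-week PMN, against 6.09, 6.30, 6.09 and 6.13 in naive PMN, where it was near the background level. In Mo, Thbs1, the thrombospondin-1 gene, read 11.35, 11.49 and 10.79 at 6 weeks, against 9.78, 9.50 and 9.41 in naive mice, a 3.12-fold rise (limma adjusted p = 1.58e-06). Il1b, the interleukin-1 beta gene, read 8.29, 7.75 and 8.23 in 6-week Mo, against 9.05, 9.42 and 9.23 in 3-week Mo (change -1.14, limma adjusted p = 2.39e-05) and 8.89, 8.63 and 8.84 in naive Mo (change -0.70, limma adjusted p = 0.00113, lost with centring on receptor genes). Ptgs2 and Cxcl2 were near the background level in Mo at every stage, so their changes were not compared between the subsets.

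**Figure D5:**
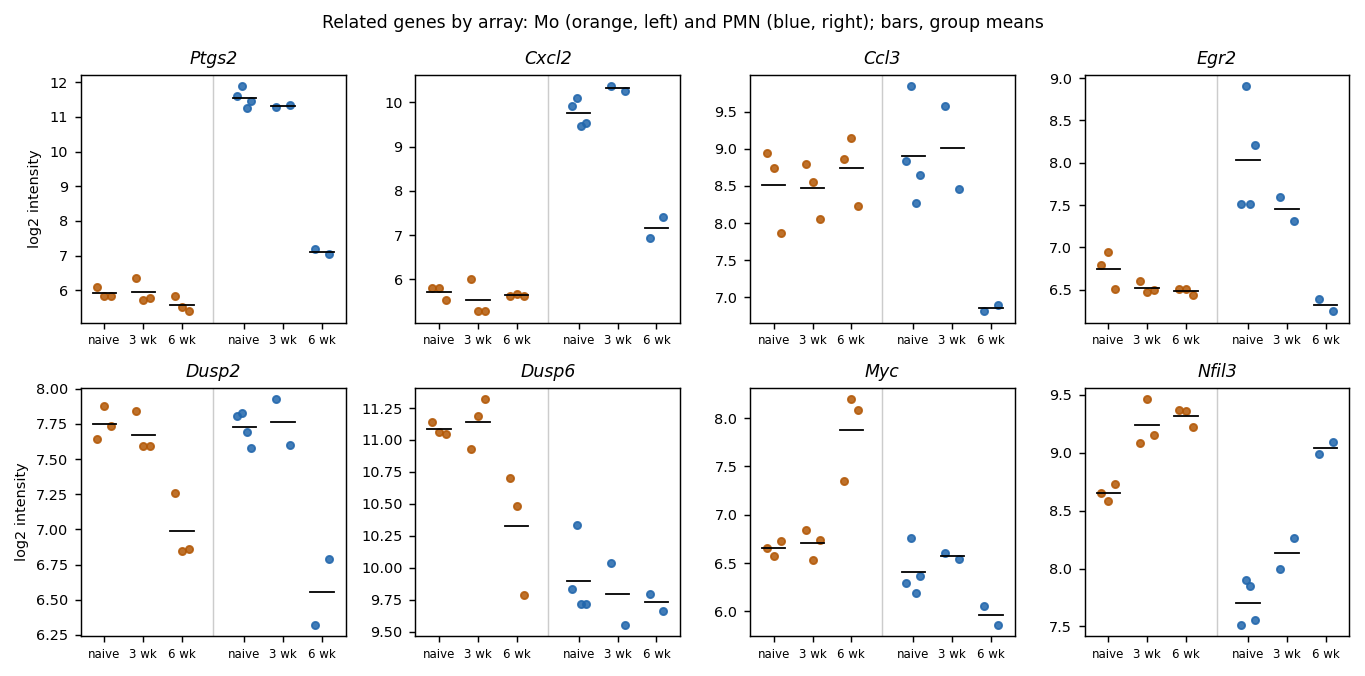
Log2 intensity by array and stage of 8 related genes in Mo (orange, left of the line) and PMN (blue, right of it), with bars at group means. Ptgs2, Cxcl2, Ccl3 and Egr2 have 6-week PMN points below all naive and 3-week PMN points, and Myc has 6-week Mo points above all naive and 3-week Mo points.

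Other genes were ranked by how closely they followed the mean centred profile of the 10 genes, taking for each the lower of its Pearson r over the 9 Mo arrays and over the 8 PMN arrays. Of 6758 genes with a mean log2 intensity of at least 7 in both subsets, 101 had an r over 0.8 in both. The 8 highest were Mir27a (lower r 0.963), Mir23a (0.951), Ppp1r15a (0.903), Ccr7 (0.894), Fgf15 (0.893), Gata2 (0.892), Hspg2 (0.887) and Cxcr3 (0.886). The arrays share the stage groups and the normalization, so r describes these arrays and carries no p. The cut of 7 lies under the background level in naive Mo (7.10), naive PMN (7.21) and 3-week PMN (7.20). The centred mean of the receptor genes was also lower in 6-week PMN, at -0.29 on each array, against 0.16, -0.003, 0.10 and 0.15 in naive PMN. The part of background in these r values was not tested. Ppp1r15a is itself an immediate early gene, and Ccr7 and Cxcr3 encode lymphocyte chemokine receptors.

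Mir27a and Mir23a are neighbouring microRNA genes, with hairpins at chr8:84208672-84208758 and chr8:84208518-84208592 (GRCm38.p6), on the chromosome that also carries Junb and Ier2. Their features are annotated to the hairpin genes and do not tell the arms apart. The mature 3p arms are shown because these genes lay closest to the 10 genes; capitals mark the seed, bases 2 to 8, and the seeds differ between them.
mmu-miR-27a-3p: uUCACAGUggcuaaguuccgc
mmu-miR-23a-3p: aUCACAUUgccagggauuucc

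Mir27a read 8.42 and 8.49 in 6-week PMN, against 10.53, 10.72, 10.28 and 10.32 in naive PMN, a change of -2.01. In Mo it read 8.25, 8.68 and 7.79 at 6 weeks, against 9.77, 9.69 and 8.80 in naive mice, a change of -1.18. Neither pair of groups overlapped, and replicate 3 was the lowest Mo array in both. The fitted 6-week change of Mir23a was -1.76 in PMN and -1.19 in Mo. These genes were chosen for their likeness over the same arrays, so their changes are a description and carry no test.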

How the data were processed

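Per the submitters' processing notes, the authors made the deposited values with RMA, which corrects background, quantile normalizes and summarises probes; its version and settings are not given in the sources used here. The deposited intensities are on a linear scale, from 9.76 to 32095, and were taken to log2. Of 35557 features, 21789 carried 1 gene symbol, 1621 several and 12147 none. Each gene was its feature with the highest mean, which left 19938 genes, and 21698 features had an Entrez number found in RefSeq GRCm38.p6, the source of coordinates and sequences.

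Samples were grouped by the labels. Group means of 6 groups were fitted with limma 3.58.1 in R 4.3.3, two-sided, with no filter, and p-values were adjusted by Benjamini-Hochberg within each of the 9 comparisons. The pipeline was tested on simulated data. The number of arrays, 2 to 4 a group, limits the precision. The members and the gene lists were chosen with earlier results of these data known. All 10 members were named, with up to 4 called genes of largest change from each list and the 8 genes of closest profile. Alternatives were 3 scalings, a floor of 5.27 and a minimum mean of 6.86 on the log2 scale, arrays of 1 subset alone, array weights, a robust trend, a replicate block, the mean of all features of a gene, and leaving out each of the 17 arrays.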

Additional observations from a re-analysis of the deposited data

Results flagged for a closer look

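In naive PMN, 1 array stood apart for Nr4a1: replicate 2 read 10.92, against 9.89 to 10.06 in the other 3 arrays, a gap of 0.835 of the group's range beside a critical value of 0.829 for 4 arrays. Chance flags about 1 in 20 groups. The same array was the highest naive PMN array for 9 of the 10 genes. Without it, Nr4a1 was still called lower in 6-week PMN.

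The stage change of 2 genes differed between the subsets by a test of the difference itself. For Egr1, the change in Mo minus that in PMN was 1.92 for 6 weeks against naive and 2.04 for 6 against 3 weeks. Its mean in Mo was near the background level, at 6.73 beside 7.10 in naive and 6.42 beside 6.75 in 3-week arrays, so a fall in Mo could be read only down to that level. For Nr4a1 it was 1.54 and 1.32 for the same comparisons, which share the 6-week arrays.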

How the results depend on the processing

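Over 9 comparisons of the 10 genes, no call changed direction under any of the 27 alternatives (26 for differences between subsets, which cannot be had from 1 subset alone). The scaling on receptor gene medians was added after seeing the data. It moved the median change of all genes from -0.18 to 0.17 in 6-week against naive PMN and from -0.09 to 0.25 in Mo, and that of the 10 genes to -0.75 and -0.28. The 8 genes called in 6-week against naive PMN became 5 with median centring, with the floor and with receptor centring, and 5 to 9 with 1 array left out (5 without either 6-week array). The 6 in Mo became 3 with either centring and 3 to 7 with 1 array left out (3 without Mo 6-week replicate 3). In 6-week against 3-week Mo the 2 became 1 with either centring or with Mo alone, 0 with the floor and 7 with array weights, and 0 to 2 with 1 array left out. In 3-week against naive Mo the 0 became 7 with array weights and 0 to 3 with 1 array left out. The 7 in 6-week against 3-week PMN ran from 5 to 8 throughout. For the Mo minus PMN change from naive to 6 weeks the 2 became 4 with array weights and ran from 2 to 3 with 1 array left out. From 3 to 6 weeks the 2 became 5 with quantile normalization, 4 without dim genes and 4 with array weights, and ran from 2 to 4 with 1 array left out, 4 without Mo naive replicate 3 or Mo 3-week replicate 1 or 2. The cause was not tested. The array weights had not converged. Calls were 0 throughout in 3-week against naive PMN and in the matching difference between subsets. Among genes of like profile, the change of Gata2 and Hspg2 in 6-week Mo turned to 0.024 and 0.079 with receptor centring, past no threshold.

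With the replicate number as a replicate block within each subset, calls were 3 in 3-week against naive Mo (Fosb, Jun and Dusp1), 7 in 6-week against naive Mo, 4 in 6-week against 3-week Mo, 10 in 6-week against naive PMN and 8 in 6-week against 3-week PMN, and 5 for both differences between subsets at 6 weeks. In Mo, deviations of same-numbered arrays correlated from -0.12 to 0.64 over 9 pairs, and those of differently numbered arrays from -0.69 to 0.47. There 7 of 9 arrays correlated best with their own number, so Mo arrays of 1 number shared part of their spread. In PMN same-numbered arrays correlated from -0.47 to 0.02 over 6 pairs. Deviations in a group of 2 arrays mirror each other, so the PMN check carries little and decides nothing. The labels tie the numbers to nothing, and for that reason the main fit did not pair the samples by number. What arrays of 1 number have in common was not tested.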

Other observations

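Erythroid markers, given above only for replicates of naive PMN, were also read by stage in the same arrays. The summed intensity of 4 measured erythroid markers was 549 to 2587 in 6-week Mo, against 588 to 1012 in naive Mo, and 715 to 812 in 6-week PMN, against 539 to 577 in naive PMN.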
